A study of Mus musculus with 4 samples.

Results

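Kinesins are the motor proteins that walk along microtubules, and the genes described here are those whose names start with Kif followed by a digit or by c, or with Klc followed by a digit. The rule was applied to gene names alone and found 48 of the 24344 names in the tables. Of these, 14 were taken as mitotic kinesins, 17 as transport kinesins, 4 as kinesin light chains and 13 as other members. Among the other members, 3 are not motors by their names: Kif1bp encodes a kinesin-binding protein, Kif4-ps is a pseudogene and Kif16bos is a transcript opposite Kif16b.

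As background, a kinesin heavy chain holds a motor domain that burns ATP to step along a microtubule, and a tail that binds cargo or other microtubules. Mitotic kinesins build the spindle, move and align chromosomes, and organise the midzone and cleavage furrow, and most are made only in dividing cells. Transport kinesins carry vesicles, mitochondria and proteins, and several of them (Kif1a, Kif5a, Kif5c, Kif3c) are known mainly from axons of neurons, while Kif5b and Kif1c are made in most tissues. The light chains bind the Kif5 heavy chains and pick the cargo.

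RNA-seq libraries of 2 normal mouse prostates and 2 prostate tumours were compared. The normal prostates came from wild-type F1 males of C57BL/6 and FVB parents at 22 weeks. The tumours came from F1 males of the same parent strains that carried the TRAMP transgene, SV40 large T antigen (a viral protein that inactivates the RB and p53 tumour suppressors) under the rat probasin promoter, which is active in prostate epithelium; the labels give their stage as late and their age as 24 weeks. Large T is thus present in every tumour and in no control. That the libraries of a group came from separate animals is not stated outright, and the p-values measure only how far these 4 samples spread, which may be technical.

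Libraries held 986717 to 1580686 implied fragments, estimated from the width of the confidence interval of each value. The tumours were not alike. Of the 7 luminal epithelial markers listed, all were above 0 in both normal glands (summed scaled FPKM 1488 and 1807) and in tumour 2 (954), while in tumour 1 their sum was 21.2 and Cdh1 and Spdef were among those listed at 0. Neuroendocrine markers summed to 5.94 and 4.15 in the normal glands and to 687 and 979 in TRAMP tumours, with Chga listed at 0 in both normal glands. Of the 10 that could be tested 9 rose, and these 9 passed the filter on low values through the tumours alone, as a group of genes of which 44.6% rose, so the count is no support. Neuronal markers summed to 8.34 and 7.18 against 565 and 246; 9 of 10 rose, of which 8 passed the filter through the tumours alone. Of 6 Schwann cell markers, the glial cells of nerves, 3 could be tested and 0 rose. Sox10 was listed at 0 in all 4 libraries, while Pmp22 lay at 2.48 and 4.19 against 17.5 and 11.8 and just missed the threshold (adjusted p = 0.0505). Smooth muscle markers summed to 579 and 539 against 3.86 and 104, basal markers to 72.8 and 71.1 against 0 and 24.6, and fibroblast markers to 123 and 99.0 against 50.4 and 376. In bulk tissue, fewer cells of a type and less RNA per cell cannot be told apart, and the part of cell composition in the results below was not tested.

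Values below are FPKM (fragments relative to transcript length and to all mapped fragments) scaled so that the median gene is equal between libraries, and are given as a pair in the order normal 1 and normal 2, or tumour 1 and tumour 2. Log2 differences are tumour minus normal on the scale of log2(scaled FPKM + 1), with 2 libraries per group and ± as the standard error, and the added 1 understates the change of genes that are low in a group. A gene rose or fell where limma gave an adjusted p under 0.05 over the 13162 genes with an FPKM of at least 1 in at least 2 libraries. Reads of overlapping genes on opposite strands may not be told apart, and besides the genes named with a partner below, this touches Kif1bp, Kif26b, Kif27, Kif2a, Kif5b, Kif6, Kif7, Kifc2, Kifc3, Klc2 and Klc3.

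Kinesin RNA was more abundant in TRAMP tumours, and its makeup differed. The 48 genes summed to a scaled FPKM of 240.3 and 236.6 in the normal glands and to 893 and 513 in TRAMP tumours. Mitotic kinesins held 7.05% and 3.40% of that sum in the normal glands and 46.5% and 32.6% in TRAMP tumours. Transport kinesins held the largest part in the normal glands, 54.8% and 53.2%, and 25.4% and 31.3% in TRAMP tumours, although their own sum was no lower there (132 and 126 against 227 and 161). Of the 48 genes 38 could be tested. In all, 16 rose, 1 fell and 21 did not pass, where 9.85% of all genes tested rose and 8.27% fell (1296 and 1088 genes, and 3681 and 427 with FPKM as deposited). At an unadjusted p under 0.05 there were 23 higher and 3 lower among the 38. Both tumours lay above both normal prostates in 25 and below both in 6, where 37.7% and 33.3% of all genes tested did so.

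The filter on low values shaped these counts. Of the 38 tested genes 18 reached it in TRAMP tumours alone, so that they had to be higher there, and 14 of those 18 rose, where 44.6% of all 1820 genes that reached the filter in this way rose. Of the other 20 genes, 2 rose (Klc1 and Kif3a) and 1 fell (Klc4), where 4.28% and 9.59% of the genes of that kind rose and fell. With either normal library left out, limma called 0 genes of any kind (1338 higher and 1096 lower, and 1350 and 1004, at an unadjusted p under 0.05), so no kinesin call held with a single normal library; all 17 kept their sign and an unadjusted p under 0.05. Over the same 13162 genes, 13 of the 17 calls were kept without tumour 1, when Kif11 (adjusted p = 0.0654), Kif3a (0.0813), Kif20a (0.0842) and Kif4 (0.0858) were lost, and 17 were kept without tumour 2.

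**Figure D1:**
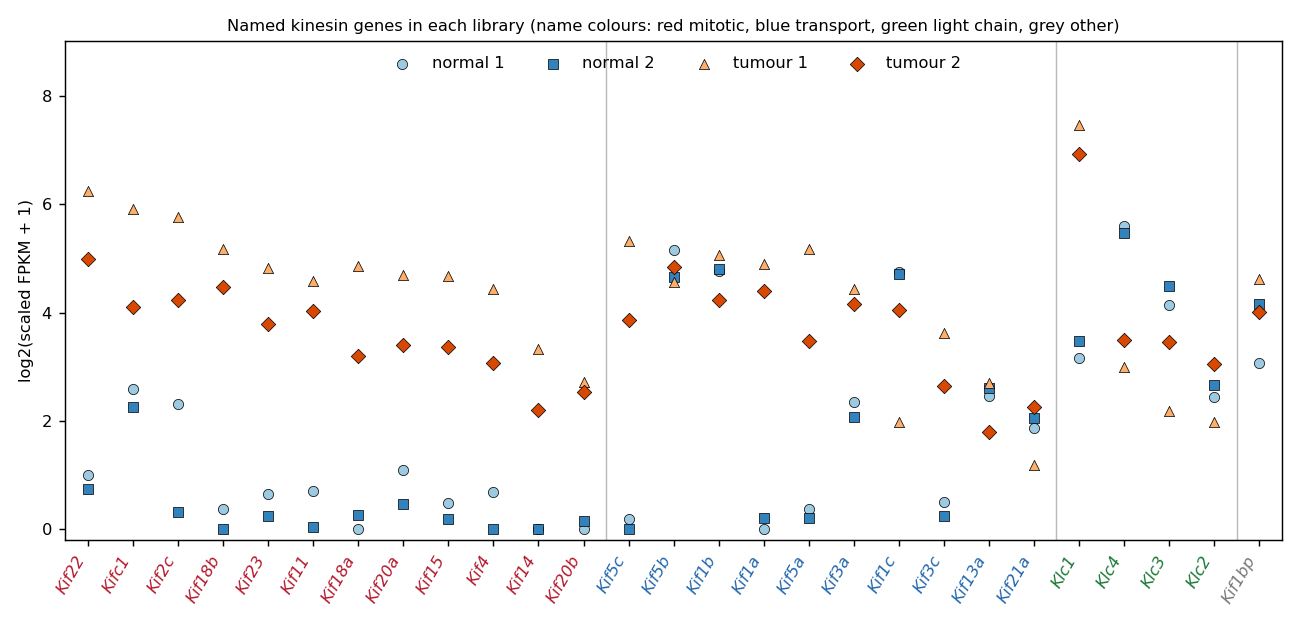
Level of the 27 kinesin genes described by name (x axis) in each of the 4 libraries, as log2(scaled FPKM + 1) on the y axis; each point is 1 library and vertical lines part the classes. The mitotic kinesins sit low in both normal glands, with Kifc1 the highest of them, while Kif5b and Kif1b lie at about the same height in all 4 libraries.

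Mitotic kinesins were nearly silent in the normal glands and present in both tumours. The 14 genes summed to 16.9 and 8.05 in the normal glands and to 415 and 167 in TRAMP tumours. Values of 1 FPKM or more were seen for 3 and 2 of them in the normal prostates and for 13 and 13 in TRAMP tumours, with only the testis gene Kif2b listed at 0 throughout. Of the 13 tested, 10 rose and 3 did not pass, where 9.85% of all genes tested rose. In all 13 both tumours lay above both normal prostates, where 37.7% of all genes tested did so. The median log2 difference was 3.69, with or without the member at 0 in both normal glands, where the median of all genes tested was 0.07. The 10 that rose all reached the filter in TRAMP tumours alone, as a group of genes of which 44.6% rose. In FPKM as deposited these 10 had to be higher in both tumours, so their separation is no support. The 3 others (Kif2c, Kifc1 and Kifc5b) did not pass.

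The spindle motors come first. Kif11 (Eg5; chromosome 19, 37376403 to 37421859), which pushes the spindle poles apart, lay at 0.634 and 0.0341 in the normal glands and at 22.9 and 15.3 in TRAMP tumours, a log2 difference of 3.93 ± 0.48 (adjusted p = 0.0208). Kif15 (chromosome 9, 122951081 to 123018733), which can keep the spindle bipolar beside Kif11, lay at 0.403 and 0.136 and at 24.5 and 9.36 (3.69 ± 0.58, adjusted p = 0.0264). Neither gene overlapped between the groups, and the normal values rested on 2.2 and 0.1 implied fragments for Kif11 and on 2 and 1 for Kif15. Kifc1 (chromosome 17, 33875666 to 33890633), a minus-end motor that gathers spindle poles, had the highest normal level of the class, 5.05 and 3.79, against 59.4 and 16.2 in TRAMP tumours. It did not pass (2.58 ± 0.67, adjusted p = 0.0587), with tumour 1 far above tumour 2, and it passed with FPKM as deposited (3.41, adjusted p = 0.0274). Its close paralog Kifc5b lay at 3.26 and 2.27 against 30.6 and 10.9 (adjusted p = 0.0541); they are near-identical copies, so their separate values are uncertain.

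In motors of the chromosomes and kinetochores tumour 1 was again above tumour 2, and both were above the normal glands. Kif22 (chromosome 7, 127027731 to 127042420), the chromokinesin that pushes chromosome arms outward, was the highest mitotic kinesin in TRAMP tumours, at 74.2 and 30.5 against 1.0001 and 0.677 in the normal glands (log2 difference 4.73 ± 0.54, adjusted p = 0.0203). Kif4 (chromosome X, 100626065 to 100727271), a chromokinesin that also shortens the midzone, lay at 0.619 and was listed at 0 in the normal glands and lay at 20.6 and 7.44 in TRAMP tumours (3.41 ± 0.62, adjusted p = 0.0328). Its call was lost with a pseudocount of 0.1 (5.54, adjusted p = 0.0541) and by voom (5.76, adjusted p = 0.0523), and it shares exon sequence with the opposite-strand gene Pdzd11, at 33.2 and 22.5 against 15.2 and 29.9. Kif18a (chromosome 2, 109280738 to 109341746), which damps chromosome movement at plus ends, was listed at 0 and lay at 0.199 in the normal glands and lay at 28.2 and 8.14 in TRAMP tumours (3.90 ± 0.67, adjusted p = 0.0298). Kif18a shares exon sequence with the opposite-strand gene Mettl15, at 3.86 and 0.746 against 9.54 and 6.91, and Kif22 with Gm31749. Its relative Kif18b (chromosome 11, 102905519 to 102925124), a shortener of astral microtubules, lay at 0.297 and was listed at 0, against 34.9 and 21.1 (4.63 ± 0.46, adjusted p = 0.0195). Kif2c (MCAK; chromosome 4, 117159633 to 117182624), which takes microtubules apart to correct wrong attachments, lay at 3.95 in normal 1 but at 0.243 in normal 2, and at 53.4 and 17.8 in TRAMP tumours. With that spread it just missed the threshold (3.69 ± 0.88, adjusted p = 0.0506), and it passed with FPKM as deposited (4.35, adjusted p = 0.0273).

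The motors of cytokinesis were also higher in both tumours. Kif23 (MKLP1; chromosome 9, 61917278 to 61946799), the motor of the centralspindlin complex, lay at 0.578 and 0.196 in the normal glands and at 27.4 and 12.8 in TRAMP tumours (log2 difference 3.85 ± 0.53, adjusted p = 0.0224). Kif20a (MKLP2; chromosome 18, 34624624 to 34633277), which carries the chromosomal passenger complex to the midzone, lay at 1.14 and 0.385 against 24.7 and 9.51 (3.26 ± 0.60, adjusted p = 0.0332), and it shares exon sequence with the opposite-strand gene Cdc23. Kif20b (chromosome 19, 34922358 to 34975731), which acts late in cytokinesis, was listed at 0 and lay at 0.118 in the normal glands and lay at 5.63 and 4.76 in TRAMP tumours (2.55 ± 0.37, adjusted p = 0.0235). Of the 13 tested mitotic kinesins, Kif20b showed the smallest difference between the tumours. Kif14 (chromosome 1, 136467848 to 136530819), which brings citron kinase to the midbody, was listed at 0 in both normal glands and lay at 8.99 and 3.59 in TRAMP tumours (adjusted p = 0.0331); no fold is given against 0. Without the filter on low values, when 17072 genes were tested, the calls of Kif14, Kif15, Kif18a, Kif20a, Kif20b, Kif23 and Kif4 were lost (adjusted p = 0.0511 to 0.0652), those of Kif11, Kif18b and Kif22 were kept, and that of Kif14 was also lost under quantile normalization (adjusted p = 0.0555).

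Partners of these motors from a list of 19 mitotic genes gave the same picture. All 19 could be tested and all 19 rose, with a median log2 difference of 4.15, where 9.85% of all genes tested rose. Of the 19, 11 reached the filter in TRAMP tumours alone, as a group of genes of which 44.6% rose. The other 8 had an FPKM of at least 1 in at least 1 normal library, and 4.28% of such genes rose. Among these 8, Aurkb, Incenp, Mki67 and Plk1 had it in normal 1 but not in normal 2, so they too needed a tumour to reach the filter. Racgap1, which pairs with Kif23 in centralspindlin, lay at 0.682 in normal 1 and at 167 and 50.1 in TRAMP tumours, and was listed at 0 in normal 2. Prc1, the crosslinker that Kif4 follows to the midzone, lay at 1.13 and 0.918 against 89.4 and 41.7. Tpx2, which targets Kif11 and Kif15 to the spindle, lay at 0.705 and was listed at 0, against 68.0 and 28.9. Cenpe, a kinetochore kinesin whose name falls outside the rule, lay at 0.489 and was listed at 0, against 12.2 and 6.90, and rose (log2 difference 3.06, adjusted p = 0.0267).

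Promoter sequence is shown because the mitotic kinesins moved together. Genes expressed late in the cell cycle are known for 2 short elements, the CCAAT box (bound by NF-Y) and the cell cycle genes homology region or CHR (bound by the MuvB complexes). The letters CCAAT and TTTGAA were searched on both strands in the 250 bases before each RefSeq start; the 2 strings can share only an end base. RefSeq entries on build GRCm38.p6 were found for 37 of the 48 genes. Matches are in capitals, in either direction, and each line ends at the base before the RefSeq start. The first 4 are mitotic kinesins that rose; Kif5c is a neuronal transport kinesin that rose and Klc4 is the light chain that fell. For Kif15 and Kif22 only the last 30 bases are given, since GENCODE transcripts that start upstream cover them.
Kif11, chr19:37376272-37376381, plus strand: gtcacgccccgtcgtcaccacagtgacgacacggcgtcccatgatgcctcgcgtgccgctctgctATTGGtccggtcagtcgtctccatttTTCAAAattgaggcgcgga
Kif15, chr9:122951051-122951080, plus strand: ggggcgccaaaTTCAAAtctgcggccatct
Kif22, chr7:127042421-127042450, minus strand: ggggccccggtaaTTCAAAagagagaagcg
Kif18b, chr11:102925125-102925234, minus strand: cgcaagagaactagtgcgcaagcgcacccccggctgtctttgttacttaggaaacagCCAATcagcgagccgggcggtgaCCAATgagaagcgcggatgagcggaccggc
Kif5c, chr2:49619176-49619285, plus strand: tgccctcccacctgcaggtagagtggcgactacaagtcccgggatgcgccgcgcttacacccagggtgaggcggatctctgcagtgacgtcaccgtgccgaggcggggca
Klc4, chr17:46646081-46646190, minus strand: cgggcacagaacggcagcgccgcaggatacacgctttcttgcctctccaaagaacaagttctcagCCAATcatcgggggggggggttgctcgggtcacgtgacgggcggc

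In Kif11, Kif15 and Kif22 a TTTGAA match started at position -19, -19 and -17 from the RefSeq start, and in Kif11 and Kif22 a CCAAT match lay upstream of it, at -45 and -54. TTTGAA was present in 5 of 13 mitotic kinesin promoters, against 18.3% of 27025 genes in the table and 1 of 11 transport kinesins. CCAAT was present in 9 of 13, against 37.5% of all genes and 3 of 11 transport kinesins. Both were present in 3 of 13 (Kif11, Kif14 and Kif22), against 6.45% of all genes and 0 of 11 transport kinesins. The pair was not particular to mitotic kinesins. Of the 10 other members with a promoter, 2 held TTTGAA, 5 held CCAAT and 2 held both. Of 3 light chains, 0 held TTTGAA and 2 held CCAAT. Kif18a and Kif20b rose and held neither string in this window, and Kif20a was not among the genes matched. A match describes the letters only and is no measure of binding.

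**Figure D2:**
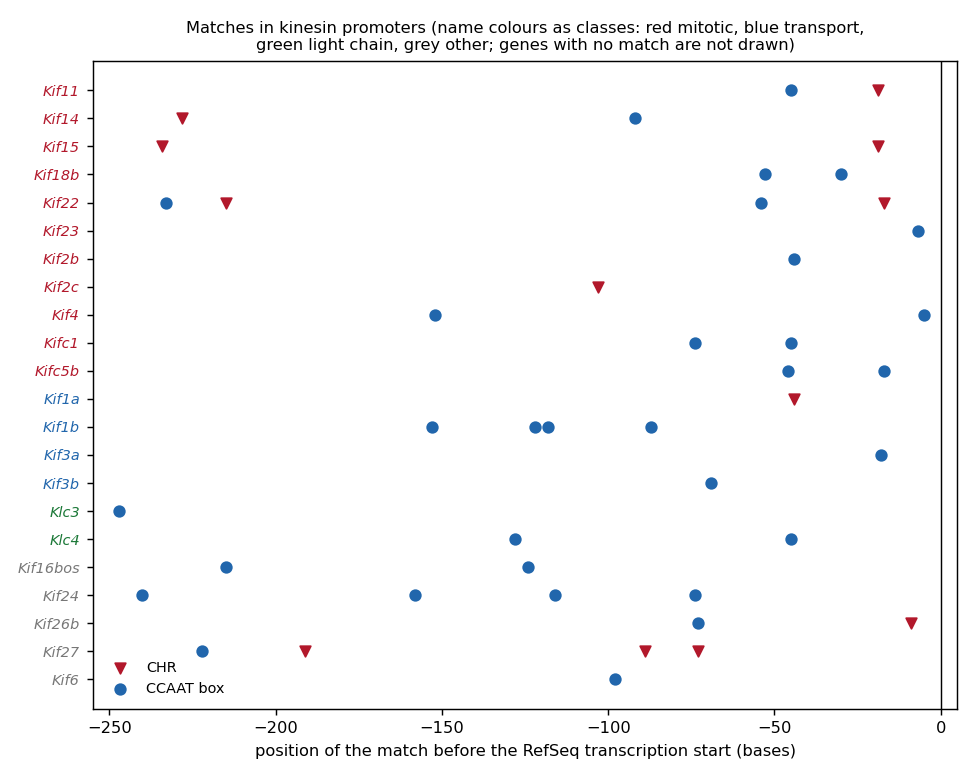
Position of each TTTGAA (CHR) and CCAAT match, in bases before the RefSeq start (x axis, 0 is the start), in the kinesin promoters that held at least 1 match (y axis); genes with several RefSeq starts have their matches pooled. Triangles within the last 20 bases are seen in Kif11, Kif15 and Kif22, and also in Kif26b, which is no mitotic kinesin.

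Of the 17 transport kinesins 16 could be tested, of which 5 rose, 0 fell and 11 did not pass, and 8 fold changes were positive and 8 negative. Of all genes tested, 9.85% rose and 8.27% fell. The 5 were Kif1a, Kif5a, Kif5c, Kif3c and Kif3a, and the first 4 reached the filter in TRAMP tumours alone, as a group of genes of which 44.6% rose. Of the 11 tested that reached it otherwise only Kif3a rose, where 4.28% of such genes rose. The median log2 difference was -0.04, against 0.07 over all genes tested, and this median turned positive with FPKM as deposited (0.79) and under several other settings.

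The neuronal motors Kif1a, Kif5a and Kif5c were barely detected in the normal glands. Kif1a (chromosome 1, 93015455 to 93101874), the fast carrier of synaptic vesicle precursors and dense-core granules, was listed at 0 and lay at 0.158 in the normal glands and lay at 28.7 and 20.02 in TRAMP tumours (log2 difference 4.54 ± 0.43, adjusted p = 0.0195). The implied fragments behind these values were 0 and 0.9 in the normal glands and 517 and 306 in TRAMP tumours. Kif5c (chromosome 2, 49619314 to 49774778), a neuronal conventional kinesin, lay at 0.140 and was listed at 0, against 38.9 and 13.6 (4.50 ± 0.61, adjusted p = 0.0222). Kif5a (chromosome 10, 127225695 to 127263363), the neuronal isoform that carries neurofilaments, lay at 0.305 and 0.155 against 35.2 and 10.1 (4.03 ± 0.67, adjusted p = 0.0282). Tumour 1 was the higher of the tumours in all 3 genes. The groups did not overlap for any of the 3, which all reached the filter in TRAMP tumours alone. Without the filter on low values the calls of Kif5c (adjusted p = 0.0511) and Kif5a (adjusted p = 0.0585) were lost and that of Kif1a was kept (adjusted p = 0.0484).

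In the heterotrimeric kinesin-2 motor, Kif3a pairs with either Kif3b or the more neuronal Kif3c, and Kifap3 links the pair to cargo. Kif3a (chromosome 11, 53567369 to 53604246) was measured well in the normal glands, at 4.10 and 3.20 on 20.6 and 24 implied fragments, and lay at 20.5 and 16.8 in TRAMP tumours, a 4.24-fold rise on this scale (log2 difference 2.08 ± 0.37, adjusted p = 0.0317). Kif3c (chromosome 12, 3365132 to 3406494) lay at 0.420 and 0.190 against 11.4 and 5.27 (2.76 ± 0.50, adjusted p = 0.0321), and it shares exon sequence with genes of the opposite strand. Kif3b, the partner of most tissues, lay at 3.77 and 6.85 against 9.82 and 7.79 and did not pass (0.67 ± 0.45, adjusted p = 0.309). Kifap3, whose name falls outside the rule, lay at 3.73 and 4.89 against 17.8 and 14.0 and rose (1.67, adjusted p = 0.0463). The calls of Kif3a (adjusted p = 0.0551) and Kif3c (adjusted p = 0.0646) were lost when no filter on low values was set, and that of Kif3c also under quantile normalization (adjusted p = 0.0540).

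The carriers of most tissues did not pass. Kif5b (chromosome 18, 6201005 to 6241524), the conventional kinesin made in most cells, lay at 34.4 and 24.3 in the normal glands and at 22.7 and 27.7 in TRAMP tumours, a log2 difference of -0.20 with a 95% interval from -1.05 to 0.65. Kif1b (chromosome 4, 149176319 to 149307733), a carrier of mitochondria and vesicles, lay at 26.1 and 26.8 against 32.5 and 17.9 (-0.13, interval -1.12 to 0.87). In Kif1b the tumours lay on opposite sides of both normal prostates. With FPKM as deposited both differences were positive, 0.71 for Kif5b and 0.78 for Kif1b. Kif1c (chromosome 11, 70700548 to 70731970), a carrier of integrins and of vesicles between Golgi and endoplasmic reticulum, lay at 25.8 and 25.2 in the normal glands, at 2.93 in tumour 1 and at 15.6 in tumour 2. Both tumours were lower, but their spread kept it from passing (-1.72 ± 0.74, adjusted p = 0.153), and it passed without tumour 2 (-2.70, adjusted p = 0.0272 over the same genes).

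Further carriers were at low or middle levels. Kif13a, a recycling endosome motor, lay at 4.47 and 5.11 against 5.52 and 2.48, and Kif21a, a regulator of microtubule growth at the cell cortex, at 2.67 and 3.18 against 1.29 and 3.77, so that the tumours lay on opposite sides of the normal prostates in both genes. Both tumours lay below both normal prostates in Kif16b (9.24 and 10.1 against 2.84 and 6.17), Kifc2 (11.1 and 8.57 against 4.50 and 3.39) and Kifc3 (6.32 and 6.98 against 3.80 and 3.59). None of these 5 passed (adjusted p = 0.108 to 0.747), nor did Kif13b (adjusted p = 0.946) or the more neuronal Kif21b, at 0.157 and 0.353 against 2.92 and 1.09 (adjusted p = 0.118). Kif17 was seen in tumour 2 alone, at 0.844 on 3.8 implied fragments, and was not tested.

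**Figure D3:**
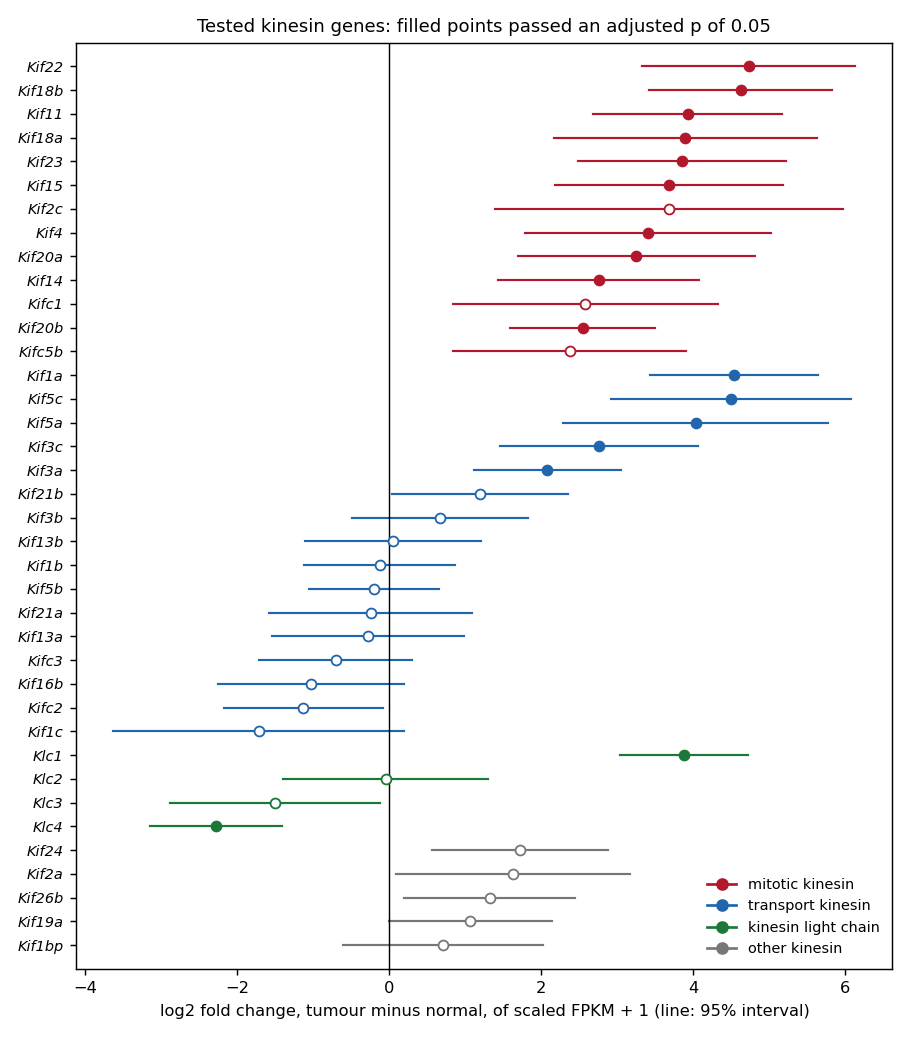
Log2 difference (tumour minus normal, x axis) of each of the 38 tested kinesin genes (y axis), with its 95% interval as a line, coloured by class; filled points passed an adjusted p of 0.05. All 13 mitotic kinesins lie to the right of 0, while the transport kinesins run from Kif1a at 4.54 to Kif1c at -1.72 and the light chains from Klc1 at 3.88 to Klc4 at -2.28.

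The light chains exchanged places. Klc4 (chromosome 17, 46630631 to 46645144) was the most abundant kinesin gene of normal prostate, at 47.4 and 43.1, and lay at 7.02 and 10.3 in TRAMP tumours, 4.85-fold lower on this scale (log2 difference -2.28 ± 0.33, adjusted p = 0.0241). Klc1 (chromosome 12, 111758849 to 111807844), the light chain known best from neurons, lay at 7.90 and 10.1 in the normal glands and was the most abundant kinesin gene of both tumours, at 174 and 121, a 14.7-fold rise (3.88 ± 0.33, adjusted p = 0.0195). Both genes were measured in all 4 libraries, on 13.8 to 794 implied fragments, so neither call rests on the filter. The rise of Klc1 was kept under all alternatives run other than those that left out a normal library, with an adjusted p of up to 0.0484 among them. The fall of Klc4 was lost with FPKM as deposited (-1.39, adjusted p = 0.0506). Klc1 shares exon sequence with Xrcc3 on the opposite strand, which lay at 0.839 and 1.42 against 8.37 and 5.26, well below Klc1 in each library.

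The remaining light chains did not pass. Klc3, known from the sperm tail and also found in epithelia, lay at 16.7 and 21.6 against 3.57 and 9.91 (log2 difference -1.50 ± 0.53, adjusted p = 0.108), with both tumours lower. Klc2 lay at 4.47 and 5.31 against 2.94 and 7.25, with the tumours on opposite sides of the normal prostates (-0.04, interval -1.39 to 1.31).

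Because FPKM are scaled by length, levels can be compared between paralogs as shares of a family in each library, which does not depend on the scaling between libraries. Of the FPKM of the 4 light chains, Klc1 held 10.3% and 12.6% in the normal glands and 92.8% and 81.5% in TRAMP tumours, and Klc4 held 62.0% and 53.8% against 3.73% and 6.96%. Of the 3 Kif5 heavy chains, Kif5b held 98.7% and 99.4% in the normal glands, and 23.4% and 53.9% in TRAMP tumours, where Kif5c held 40.2% and 26.4% and Kif5a 36.4% and 19.7%. The summed level of the 3 Kif5 genes was 34.9 and 24.5 in the normal glands and 96.8 and 51.5 in TRAMP tumours. Of Kif1a, Kif1b and Kif1c, Kif1a held 0% and 0.304% in the normal glands and 44.8% and 37.4% in TRAMP tumours, while Kif1c went from 49.8% and 48.3% to 4.56% and 29.2%. The summed level of these 3 was 51.9 and 52.2 against 64.2 and 53.5. Kif3c held 10.02% and 2.69% of the partners of Kif3a in the normal glands and 53.7% and 40.3% in TRAMP tumours. In each of these families the shares of the neuronal members did not overlap between the groups. Kif1a, Kif5a, Kif5c and Kif3c reached the filter in TRAMP tumours alone, so their separation is no support. Klc1 did not depend on the tumours to reach it. For levels, both tumours lay above both normal prostates in 37.7% of all genes tested. An exact two-sided permutation test of 2 libraries against 2 cannot go below 0.333, so none was made.

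**Figure D4:**
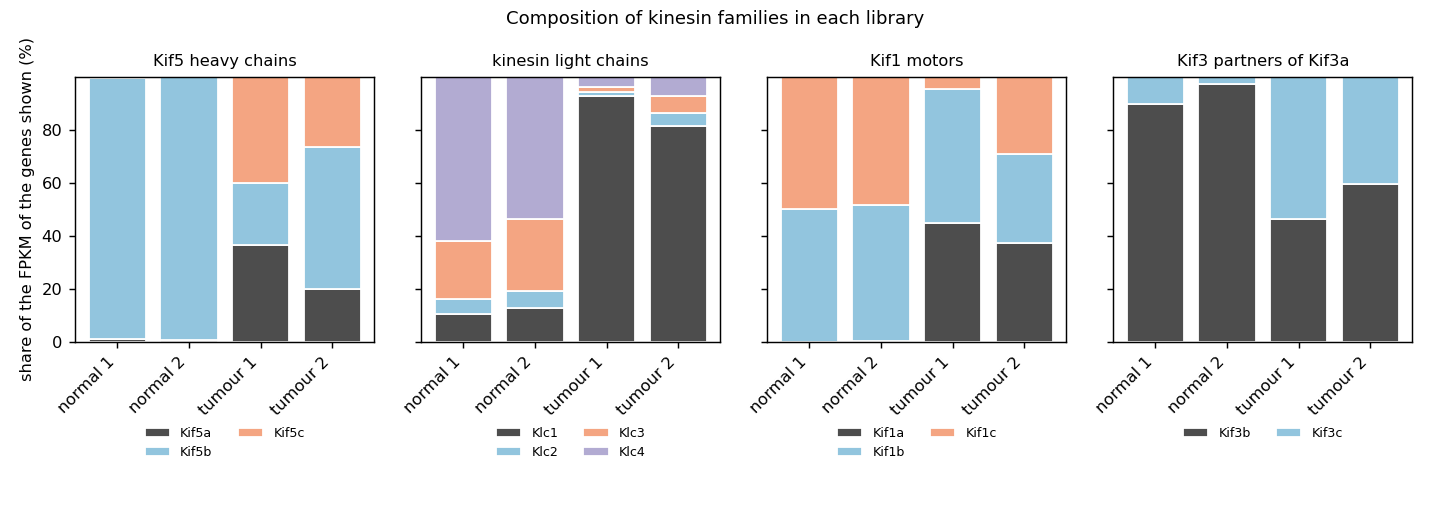
Share (%) of each gene in the summed FPKM of its kinesin family (y axis, stacked to 100%) in each library (x axis), for the Kif5 heavy chains, the light chains, Kif1a, Kif1b and Kif1c, and the Kif3a partners Kif3b and Kif3c. Klc1, Kif1a, Kif5a with Kif5c, and Kif3c take larger shares in both tumours than in either normal prostate.

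Adaptors and the opposite motor are given for comparison. Of 20 genes of kinesin cargo adaptors and transport partners, 17 could be tested, of which 5 rose, 1 fell and 11 did not pass, where 9.85% and 8.27% of all genes tested rose and fell. Of the 14 with an FPKM of at least 1 in at least 1 normal library 3 rose (Kifap3, Mapk8ip1 and Fez1), where 4.28% of such genes rose. Fez1 had an FPKM of 0.80 in normal 2, so it still needed a tumour to reach the filter. Mapk8ip1 (JIP1), an adaptor of the light chains, lay at 8.18 and 10.4 against 89.0 and 39.6 (log2 difference 2.56, adjusted p = 0.0330). Rhot2, a mitochondrial anchor of kinesin, fell, from 34.7 and 59.4 to 13.6 and 15.3 (-1.59, adjusted p = 0.0484). Of 20 dynein and dynactin genes, the motor that moves the other way, 3 rose (Dync1i1, Dynll2 and Pafah1b1), 0 fell and 17 did not pass, with a median of 0.30. The share that rose, 15%, is near the 9.85% of all genes tested, and Dync1i1 reached the filter in the tumours alone. Dync1h1, its heavy chain, lay at 20.5 and 19.1 against 22.2 and 21.1.

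Of the 13 other members 5 could be tested and 0 passed. Kif2a, a microtubule depolymerase of neurons and spindles, lay at 4.51 and 4.13 against 26.6 and 8.86 (log2 difference 1.63, adjusted p = 0.112). Kif24, which acts at centrioles, was listed at 0 and lay at 0.234 in the normal glands, against 3.92 and 1.71 (adjusted p = 0.0583). Kif26b, which lacks motor activity, lay at 0.129 and was listed at 0, against 2.64 and 0.945 (adjusted p = 0.0919), and Kif19a, a motor that limits the length of cilia, lay at 0.865 and 0.585 against 1.92 and 3.46 (adjusted p = 0.127). In these 4 genes both tumours lay above both normal prostates, as they did in 37.7% of all genes tested. Kif24, Kif26b and Kif19a reached the filter in TRAMP tumours alone, so their separation is no support. Kif1bp, which holds Kif1 and other kinesins off the microtubule, lay at 7.38 and 16.9 against 23.7 and 15.2 (adjusted p = 0.345). The ciliary and Hedgehog kinesins Kif7 and Kif27 were listed at 0 in the normal glands and lay at 2.20 and 0.337, and at 1.07 and 0.342, in TRAMP tumours, and Kif26a, Kif6 and Kif9 stayed under 2 in every library. Kif12 was listed at 0 in 3 libraries and lay at 4.27 in tumour 2. Kif4-ps and Kif16bos, like Kif2b, were listed at 0 in all 4.

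The 2 tumours differed in level. Of the 38 tested genes both tumours lay above both normal prostates in 25 and below both in 6, where 37.7% and 33.3% of all genes tested did so. For the 18 that reached the filter in TRAMP tumours alone, the shared direction is no support. Tumour 1 was higher than tumour 2 in 13 of 13 tested mitotic kinesins, by a median of 1.29 on the log2 scale (range 0.20 to 1.81), where it was higher in 6901 of 13162 genes with a median of 0.06. Among the mitotic partners the order was the same, with a summed level of 1213 in tumour 1 and 578 in tumour 2. Among transport kinesins tumour 1 was higher in 11 of 16, and Kif1c, at -2.08, was the member furthest below tumour 2. With 1 library each these values have no replicate check.

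**Figure D5:**
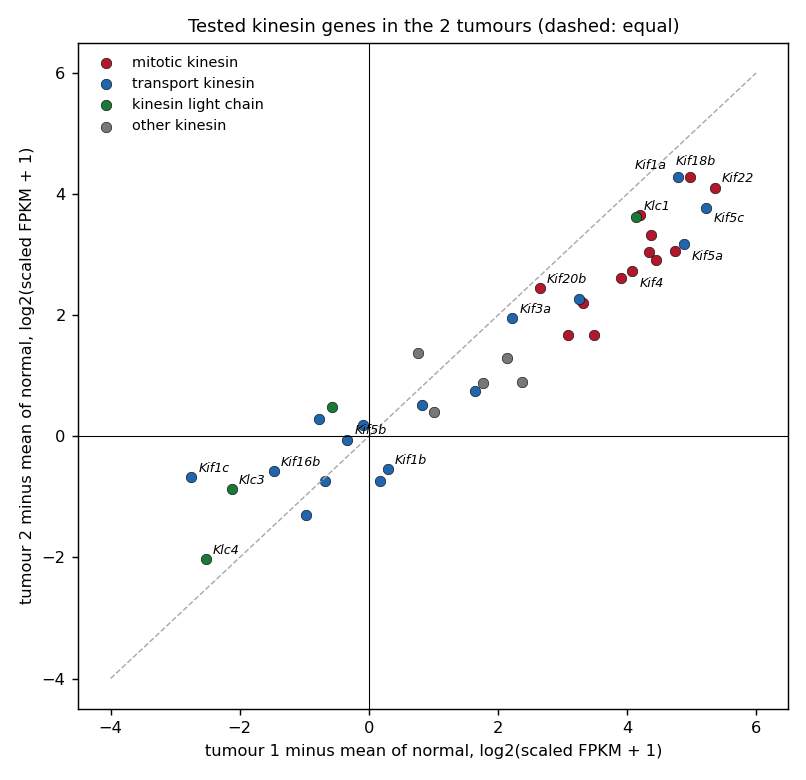
Difference of tumour 1 (x axis) and of tumour 2 (y axis) from the mean of the 2 normal prostates, in log2(scaled FPKM + 1), for the 38 tested kinesin genes, 1 point each, coloured by class; points below the dashed line are higher in tumour 1. The mitotic kinesins all lie below the line, and Klc4, Klc3, Kif1c and Kif16b lie below 0 in both tumours.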

How the data were processed

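Total RNA of 4 tissue samples was sequenced from TruSeq libraries on a NextSeq instrument, per the labels' protocols. The authors deposited a Cufflinks gene table per library with FPKM and its confidence interval. The submitters' processing notes name Cufflinks 2.1.1 and Cuffdiff 2.1.1, TopHat2 2.0.8, Trim Galore, and the build mm10 or GRCm38; the annotation and strand setting were not given in the sources used here. From the deposited FPKM, 27 rows whose names had become dates were left out and rows were summed by name. Libraries were divided by median-of-ratios factors over 11469 genes (0.793, 0.689, 1.34 and 1.50, a log2 shift of 0.94 between groups). Genes with FPKM of at least 1 in at least 2 libraries were tested in limma 3.58.1 (R 4.3.3) on log2(scaled FPKM + 1) with an intensity trend, two-sided, Benjamini-Hochberg adjusted, with 2 residual and 2.85 prior degrees of freedom. Implied fragments are (FPKM / SD) squared, where 2 SD is the distance from the FPKM to its upper bound; 71.0% to 72.5% of low single-start values lay within 0.1 of a whole number. Intervals of this kind cover counting error only. Table starts count from 0 and were raised by 1. GENCODE M21 gave exon overlaps. Figures used Python 3.11.15 and matplotlib 3.10.9.

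The members, lists and tests were chosen with earlier results of these data known. Named with values in each library were all members past the threshold, the 6 highest in each group, and every tested member whose tumours lay on opposite sides of both normal libraries, 27 in all; the rest were grouped. Alternatives changed the scaling, pseudocount, filter, trend, repeated rows and libraries, or used voom on implied fragments.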

Additional observations from a re-analysis of the deposited data

How the results depend on the processing

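Of the 17 kinesin calls, 17 were kept with a pseudocount of 0.5, without the intensity trend, with the highest row of a repeated name and with FPKM scaled to the sum without genes above 1%, 16 with unscaled FPKM, a pseudocount of 0.1 or voom, 15 after quantile normalization, and 6 when no filter was set; all 17 kept their sign in these. The counts that moved by over 1.5 times are as follows. With FPKM as deposited, 3681 genes were higher and 427 lower, and 3 other kinesins and light chains were higher and 0 lower. With the sum without genes above 1%, 2537 genes were higher and 554 lower, and 2 other kinesins and light chains were higher. Without the filter, 245 genes were higher and 249 lower, with 3 mitotic and 1 transport kinesin higher. With FPKM of at least 1 in all 4 libraries, where fewer genes are tested, 555 genes were higher, with 2 mitotic and 1 transport kinesin, and the 3 called genes that could be tested were kept.

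Leaving out 1 library gave 0 to 2170 genes higher and 0 to 3405 lower, 0 to 12 mitotic kinesins higher, 0 to 6 transport kinesins higher and 0 to 2 lower, and 0 to 4 other kinesins and light chains higher and 0 to 2 lower; 0 calls remained without normal 1 or normal 2. The runs over the genes of the full fit were added after seeing the data; there the counts lower were 460 without tumour 1 and 1888 without tumour 2. A lone library was assumed to vary like the other group.

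Signs of small differences turned positive. With FPKM as deposited, Kif13a was 0.48, Kif1b 0.78, Kif21a 0.44, Kif5b 0.71, Klc2 0.74 and the transport median 0.79; with the sum without genes above 1% they were 0.25, 0.51, 0.23, 0.44, 0.50 and 0.54. Under quantile normalization Kif1b was 0.078, Kif5b 0.012 and the transport median 0.045, and without the filter that median was 0.048. Over the runs that left out a library, Kif13a ran from -0.66 to 0.18 and Kif1b to 0.30 (both without tumour 2), Kif21a from -0.73 to 0.34 and Kif5b from -0.48 to 0.014 (both without tumour 1), Klc2 from -0.55 to 0.55, with 0.033 without normal 2, and the transport median from -0.47 to 0.29, with 0.10 without normal 2 and 0.24 without tumour 2 over the same genes. The cause was not tested. No paired analysis was possible because the labels give the groups no shared replicate numbers. With 2 libraries per group and most normal mitotic values resting on a few implied fragments, sizes of rises are uncertain.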
